A study of Mus musculus with 2 samples.

Results

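The cells described here formed cluster 4 of the 12 clusters into which the study divided the stroma and immune cells of the mouse submandibular gland, and they were chosen by that cluster number alone. The cluster held 757 of 15605 cells, of which 226 came from the mock library and 531 from the ligated library. It was compared with the other 11 clusters, above all with cluster 0, the capillary endothelial cluster of 5311 cells.

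Both groups were female C57BL6/J mice aged 14 weeks, with no transgene or deletion named in the labels. In the ligated group a metal clip blocked the outflow ducts of the submandibular and the sublingual gland for 14 days, and in the mock group the ducts were found but not clipped, with the same 14 days of recovery. Each group was 1 droplet library made from a pair of pooled glands, after bead depletion of cells carrying EpCAM (an epithelial surface protein) or Ter119 (a red cell surface protein) and removal of dead cells. With 1 library per condition no difference below carries a test, a standard error or a replicate check, and each value describes these 2 libraries.

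Arteries are lined by endothelial cells that depend on Notch signalling and SOX17, carry gap junctions of connexins 37 and 40, and release endothelin-1, a peptide that makes smooth muscle contract. Lymphatic capillaries are lined by endothelial cells whose identity is set by the transcription factor PROX1 and which release the chemokine CCL21 to draw in dendritic cells and lymphocytes. Salivary glands depend on their blood vessels for the fluid that becomes saliva.

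Values are mean levels over the cells of a cluster, scaled so that each cell's UMIs total 10000. A UMI (unique molecular identifier) is a tag that lets copies of the same RNA molecule be counted once. UMI totals could be recovered for 104 mock cells of cluster 4 (median 6477, from 2139 to 40139) and for 230 ligated cells (median 6149, from 1036 to 56255). These cells are a biased sample, because deeper cells are recovered more often. At the median total, 1 UMI in 1 cell is worth 0.00683 in the mock mean and 0.00306 in the ligated mean. Since arterial and lymphatic cells share each mean, a lower level can come from fewer cells of 1 kind or from less RNA per cell, and these cannot be told apart.

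Cluster 4 made up 5.38% of the mock cells and 4.66% of the ligated cells. Their 95% intervals (Clopper-Pearson, exact) were 4.72 to 6.11 and 4.28 to 5.06. These cover counting error only, and do not compare the conditions. Among the cells of clusters 0 and 4 together, cluster 4 was 8.73% of the mock cells (7.67 to 9.88) and 15.26% of the ligated cells (14.08 to 16.5), as values of these libraries. Cluster 0 held 2363 of 4199 mock cells and 2948 of 11406 ligated cells. The bead depletion and the yield of other cells can set such shares.

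The markers named for these cells were each highest in cluster 4. Edn1, which encodes endothelin-1, had a level of 5.92 in cluster 4 with both libraries together and 0.0676 in cluster 0. Stmn2, a microtubule regulator, had 7.13 against 0.139, and Cldn5, a tight junction protein of endothelium, 7.74 against 0.281. Cldn5 is listed with general endothelial genes, yet here its next highest cluster, cluster 11, was at 0.453. Sox17, the arterial transcription factor, had 6.26 against 1.26. Ccl21a, the lymphatic chemokine, had 7.01 against 0.104, and its next highest value was 1.22 in cluster 11. Since the cells were clustered on these genes, such contrasts describe the cluster and carry no test.

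The arterial side of the label held for 22 of 26 arterial genes, whose highest level over the 12 clusters was in cluster 4. In value, 25 of the 26 were higher there than in cluster 0. For such counts of highest or higher values among clusters, here and below, no share over all genes is given. A gene was counted as different where log2 of the ratio of the values, each with 0.1 added, was at least 1 in size and the higher value was at least 0.5. By this size rule 16 arterial genes were higher in cluster 4 than in cluster 0, beside 139 of 10046 genes in all (1.38%), and 1, Nrp1, was lower, beside 121 (1.2%). The median difference of the arterial genes was 2.00 on the log2 scale, beside -0.01 over all genes. Fbln5, which organises elastic fibres, had 7.60 in cluster 4 and 0.0694 in cluster 0. Gja5, which encodes connexin 40, had 0.886 against 0.0231, and Gja4, which encodes connexin 37, had 5.91 against 0.731. Gja4 was also at 5.50 in cluster 6, the mural cluster.

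Notch ligands and a Notch target were also higher in cluster 4. Jag2 was at 2.85 in cluster 4 and 0.989 in cluster 0, Jag1 at 0.801 and 0.146, and the Notch target Hey1 at 1.57 and 0.194. These were the 3 of 12 Notch pathway genes past the rule, all higher in cluster 4, beside 1.38% of all genes. Dll4, a Notch ligand of arteries and sprouting vessels, was at 1.19 and 0.596, short of the rule. Sema3g, a secreted semaphorin, was at 4.78 and 0.311, and Mecom, a zinc finger transcription factor, at 4.83 and 0.643.

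Of 21 lymphatic genes, 9 had their highest level in cluster 4, among them Prox1 at 0.343, Lyve1, a hyaluronan receptor, at 0.657, and Mmrn1, a secreted multimerin, at 1.14. In cluster 0 these were at 0.00797, 0.000795 and 0.00565. The 9 also held Cldn11, Ackr2 and Tbx1, at only 0.0149, 0.0327 and 0.0526 in cluster 4, and Klhl4, at 0.333 against 0.260 in cluster 0. By the size rule 5 of 16 lymphatic genes were higher in cluster 4 than in cluster 0 (Lyve1, Ccl21a, Mmrn1, Fgl2 and Cp), beside 1.38% of all genes. Maf was lower by the rule, beside 1.2% of all genes. Fgl2 and Cp were higher in other clusters than in cluster 4. Fgl2 was 0.853 in cluster 4 and 3.16 in cluster 9, and Cp was 0.717 in cluster 4, 3.48 in cluster 3 and 2.53 in cluster 6. Pdpn, the membrane glycoprotein podoplanin used to mark lymphatic vessels, was only 0.0723 in cluster 4 and was highest in the fibroblast cluster 3, at 1.34. Flt4, the receptor for VEGF-C, was 0.856 in cluster 4 and 1.14 in cluster 0. Arterial and lymphatic markers were both detected in the cluster mean, but the means do not show which cells carried which.

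Genes of the venous list were found here too, which the label does not say. Of its 13 genes, 9 had a higher value in cluster 4 than in cluster 0, and 6 had their highest level in cluster 4. The means do not show which cells carried them. Vwf, the clotting factor carrier, was at 1.28 in cluster 4 and 0.0524 in cluster 0, Selp, the adhesion receptor P-selectin, at 0.534 and 0.0939, and Lrg1 at 2.21 and 0.609. These 3 of 11 venous genes were past the rule, all higher in cluster 4, beside 1.38% of all genes. Ackr1, a chemokine scavenger of venules, was at 0.485 and 0.0279, under the minimum level.

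**Figure D1:**
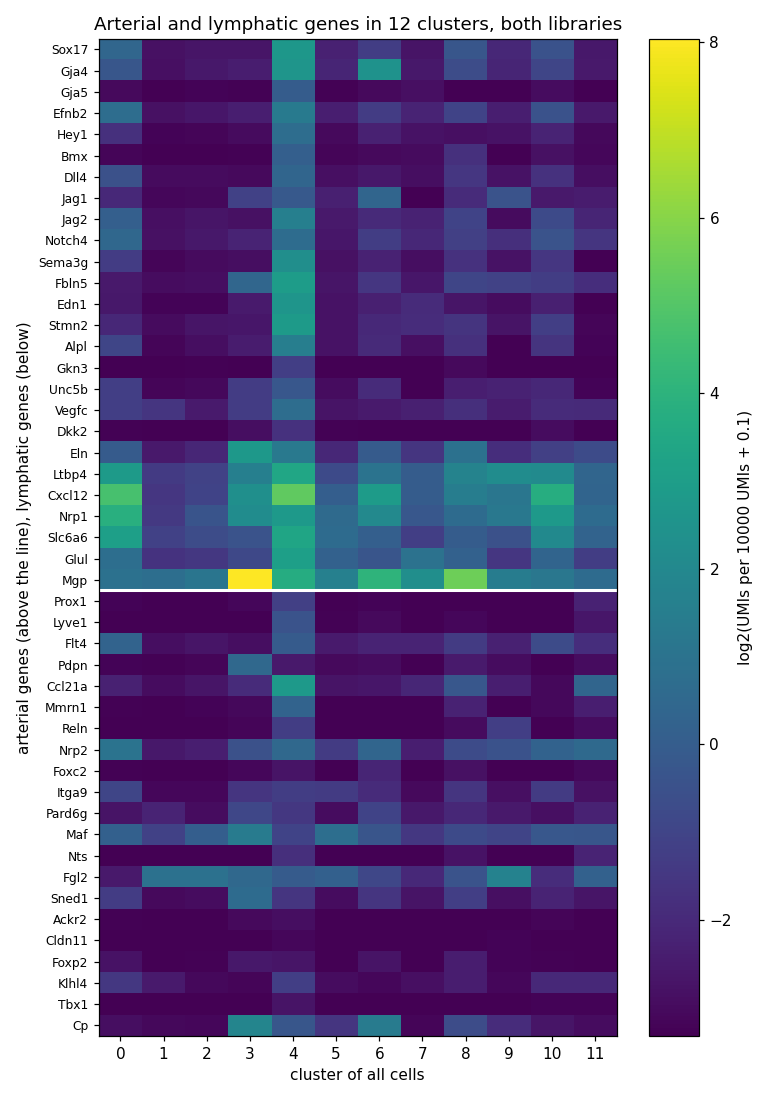
Level of arterial genes (rows above the line) and lymphatic genes (below) in the 12 clusters with both libraries together, as log2 of UMIs per 10000 UMIs plus 0.1. Most arterial rows are brightest in cluster 4, with Mgp and Eln brighter in cluster 3, and Prox1, Lyve1, Ccl21a and Mmrn1 are brightest in cluster 4 among the lymphatic rows.

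Among capillary genes, by the size rule 7 of 15 were lower in cluster 4 than in cluster 0, beside 1.2% of all genes. Such were Car4, a carbonic anhydrase of capillary walls (0.237 against 3.82), and Rgcc (4.79 against 19.5). Cd36, a fatty acid transporter, was higher by the rule at 8.52 against 3.74, beside 1.38% of all genes. In all, 6 of 17 capillary genes had a higher value in cluster 4, and Cd36, Aqp1 (6.44 against 4.06) and Tcf15 (2.56 against 1.93) were highest there. Kdr, the main VEGF receptor, was 9.10 against 23.2, while Pecam1 and Cdh5, carried by all endothelium, were 14.2 against 16.6 and 8.80 against 9.09. In the matrix, Col4a1, a basement membrane collagen, was 11.6 against 26.6, and Fn1, fibronectin, was 2.57 against 0.0879. Over 11360 genes the log2 profile of cluster 4 correlated with that of cluster 0 at r = 0.96 (Pearson, across genes of the same libraries, which are not independent replicates).

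Between the libraries, 152 of 9709 genes (1.57%) were past the size rule in cluster 4, 78 higher in the ligated library (0.803%) and 74 lower (0.762%). The median difference over all tested genes was 0.03. In value, 5157 of them were higher in the ligated library and 4552 lower. The balance depended on the setting: 41 rose and 93 fell after each library's mean profile was subtracted in part. That part was the median level of other cell types' markers in cluster 4, 2.82% of the library mean for mock and 11.1% for ligated. Since it was set from those markers, it draws their own differences toward 0 by design, and their values after it are no test. The split was 21 and 31 where the higher value had to reach 2, 29 and 11 where the difference had to reach 2, and 193 and 104 without a minimum level. With a pseudocount of 1, 33 genes were past the rule. Each difference was set beside its median over clusters 0, 1, 2, 3, 5 and 6, and 37 genes (0.381%) exceeded it by at least 1 in the same direction, 15 higher (0.154%) and 22 lower (0.227%). For 12 of the 22 lower genes, none of the 6 other clusters reached the minimum level of 0.5 in either library, so they could not have passed the rule there. With 0.1 added, differences of such low values are held near 0, and exceeding them does not show a fall particular to cluster 4. The largest rises of all were shared with the other clusters: Rnasek, listed at 0 in the mock library and at 2.54 in the ligated library, and Atp6v0c, a proton pump subunit at 0.0271 and 3.15, had median differences of 4.48 and 4.61 elsewhere. These 2 genes were chosen after their values were seen. Rnasek shares exon sequence with Gm21988, so its counts are uncertain. Such sharing held for 29 of the 152 genes, beside 862 of the 9709 tested. The libraries also differed in the symbols they list: 3150 were above 0 only in the ligated library and 684 only in the mock library.

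Edn1 had the largest fall among these 22 genes. Its mock level was 15.1 and its ligated level 2.00, a 7.53-fold lower value (log2 difference -2.85). It was low in the other clusters. In clusters 0, 1, 2, 3, 5, 6 and 10 it was lower in the ligated cells. It was 0.113 and 0.0312 in cluster 0, 0.237 and 0.0488 in cluster 3 and 0.254 and 0.0372 in cluster 6. In clusters 7, 8 and 9 it was higher in the ligated cells, at 0.0335 and 0.258, 0 and 0.0615, and 0 and 0.0303. Edn1 lies on the plus strand of chromosome 13 (GRCm38, chr13:42301476-42307990). The converting enzyme Ece1 was 5.98 and 4.57, and Ednrb, the endothelin B receptor that clears the peptide, rose from 0.754 to 1.86 in cluster 4 and from 2.69 to 6.96 in cluster 0. Of 14 vasoactive genes tested, Ednrb rose by the rule, beside 0.803% of all genes. Edn1 and Ddah1 fell by it, beside 0.762% of all genes. Ddah1, which breaks down an inhibitor of nitric oxide synthase, went from 0.954 to 0.401. Nos3, endothelial nitric oxide synthase, was 1.05 and 1.01.

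Most arterial genes did not pass the rule between the libraries. Sox17 was 6.33 in the mock and 6.23 in the ligated library, Stmn2 6.94 and 7.21, Fbln5 8.03 and 7.42, and Sema3g 5.29 and 4.55. Of 26 arterial genes 4 fell by the rule (Bmx, Edn1, Cxcl12 and Slc6a6), beside 0.762% of all genes, and none rose by it. In value 19 arterial genes were lower and 7 higher, beside 4552 lower and 5157 higher of all genes tested. Their median difference was -0.22. Bmx, a cytoplasmic tyrosine kinase of arterial endothelium, went from 1.73 to 0.649, and was no higher than 0.0394 in any of the 6 other clusters, too low for a comparison. Cxcl12, a chemokine that retains CXCR4-bearing cells, went from 74.8 to 22.9, but it also fell in cluster 0, from 45.8 to 11.1. Slc6a6, the taurine transporter, went from 17.1 to 7.17 in cluster 4 and from 13.8 to 3.96 in cluster 0. Of 12 Notch pathway genes only Lfng, a glycosyltransferase that modifies Notch, was past the rule (0.731 to 0.262), beside 0.762% of all genes that fell. Lfng fell in cluster 0 as well (1.31 to 0.523).

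No lymphatic gene of 16 tested was past the rule, and their median difference was -0.10. Ccl21a was 5.73 and 7.56, Lyve1 0.830 and 0.584, and Mmrn1 1.33 and 1.07. Prox1 was 0.133 and 0.433 and Nts, neurotensin, 0.410 and 0.0937, differences over 1 on the log2 scale at levels under the minimum of 0.5. Gm21541 fell from 0.575 to 0.0838, but this gene is a near copy of Ccl21a, with 6 of 870 transcript bases different (99.3% identical), so reads can be split between them. The sum of Ccl21a, Gm21541 and a further copy, Gm13304, was 6.31 and 7.65 (log2 difference 0.27), and the fall of Gm21541 alone is uncertain.

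Venous genes were lower in value in the ligated library in 11 of 12 tested, beside 4552 of 9709 genes in all. Their median difference was -0.74. Vwf went from 2.37 to 0.815, Selp from 1.07 to 0.304, and Vcam1, an adhesion receptor for lymphocytes and monocytes, from 0.842 to 0.150. These 3 were past the rule, beside the 0.762% of all genes that fell by it. Vwf and Selp were no higher than 0.0565 and 0.113 in the 6 other clusters, too low for a comparison, and Vcam1 was 0.890 and 1.20 in cluster 3. The leukocyte recruitment genes, which include Selp, Vcam1 and Cxcl12, were higher in 7 and lower in 7 of 14 tested, with a median of -0.28. These 3 were those past the rule, beside 0.762% of all genes that fell by it. Ackr1 was 0.786 and 0.357 and Icam1 0.629 and 0.291, short of the rule. Of 15 capillary genes, 2 rose by the rule, beside 0.803% of all genes (Aqp1, a water channel, 3.50 to 7.69, and Aplnr, the apelin receptor, 0.138 to 0.523). By the rule 2 fell, beside 0.762% of all genes (Btnl9 7.08 to 2.10 and Esm1 1.36 to 0.380), and in value 5 were higher and 10 lower. In cluster 0 Aqp1 went from 0.874 to 6.61, Aplnr from 0.994 to 2.44, Btnl9 from 14.2 to 5.59 and Esm1 from 1.98 to 0.800.

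**Figure D2:**
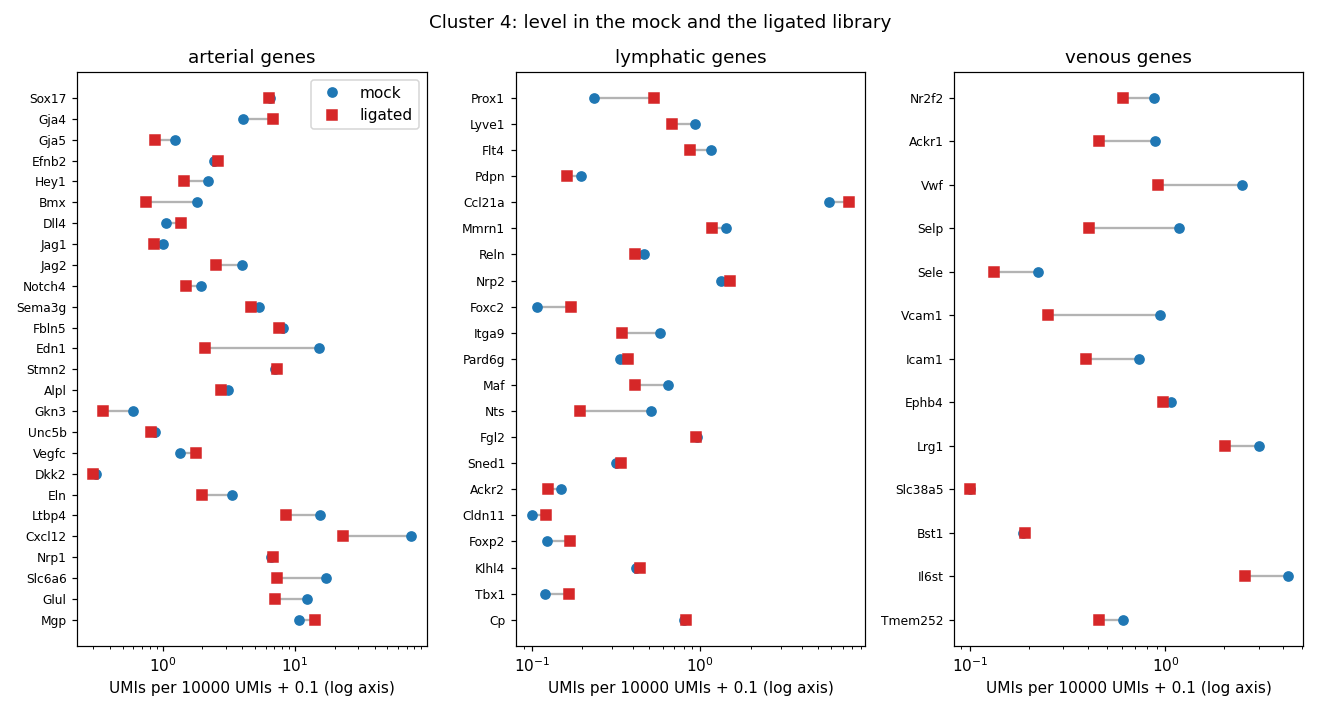
Level of each arterial, lymphatic and venous gene in cluster 4, mock (circle) and ligated (square), in UMIs per 10000 UMIs plus 0.1 on a log axis, 1 library each. Edn1 drops from 15.1 to 2.00 and Vwf from 2.37 to 0.815, while Sox17, Stmn2 and Fbln5 are nearly equal.

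Of 19 genes of the TGF-beta and BMP pathway tested, 4 fell by the rule, beside 0.762% of all genes, and none rose by it. In value 14 were lower and 5 higher, with a median difference of -0.52. Bmp6, a ligand, went from 1.05 to 0.144 (cluster 0 from 0.171 to 0.0330), and Tgfb2, a ligand, from 4.48 to 2.18. The log2 difference of Tgfb2 was -1.01 in cluster 4 and nearly the same in cluster 0, at -0.97. Eng, the co-receptor endoglin, went from 16.3 to 6.40 (log2 difference -1.33, and -0.61 in cluster 0). Smad6, an inhibitor that BMP signals induce, went from 1.54 to 0.288 (cluster 0 from 0.354 to 0.210). Bmp6 and Smad6 were no higher than 0.171 and 0.354 in the 6 other clusters, both in cluster 0. The receptors Acvrl1 (4.28 and 2.96) and Bmpr2 (6.38 and 3.87) and the target Id1 (13.1 and 8.47) were lower in value without passing the rule.

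Matrix genes were lower in 25 of 29 tested, beside 4552 of 9709 genes in all, with a median difference of -0.30. By the rule 3 fell, beside 0.762% of all genes. Fn1 went from 4.29 to 1.83, while it was 0.0677 and 0.104 in cluster 0 and 3.11 and 1.39 in the fibroblast cluster 3. Hspg2, the basement membrane proteoglycan perlecan, went from 4.95 to 2.16, and Nid2, a nidogen, from 0.771 to 0.272, both with a median of -0.72 elsewhere.

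Other genes among the 22 were Kank4, a regulator of the cytoskeleton at adhesions (1.05 to 0.0697, and 0.115 to 0.0120 in cluster 0), and Amotl2, an angiomotin family protein at cell junctions that YAP induces (1.64 to 0.219, and 0.908 to 0.258 in cluster 0). Sgk1, a kinase induced by corticosteroids, fell from 8.49 to 1.89, and in cluster 0 from 9.77 to 2.57. Ccnd1, cyclin D1, went from 2.99 to 0.715, and in cluster 0 from 4.45 to 1.75. Bcl2l1, which encodes the survival protein BCL-XL, went from 1.68 to 0.505, and in cluster 0 from 0.853 to 0.371. Pdgfd, a growth factor for mural cells, went from 1.78 to 0.586, and in cluster 0 from 0.791 to 0.478. The YAP targets Ccn1 and Ccn2 are listed under older symbols in the mock library (Cyr61 and Ctgf). Joined with these they were 0.994 and 0.550 for Ccn1 and 0.176 and 0.0839 for Ccn2, short of the rule. None of 10 flow-responsive genes tested was past the rule, Klf2, the shear stress factor, being 18.7 and 15.3.

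**Figure D3:**
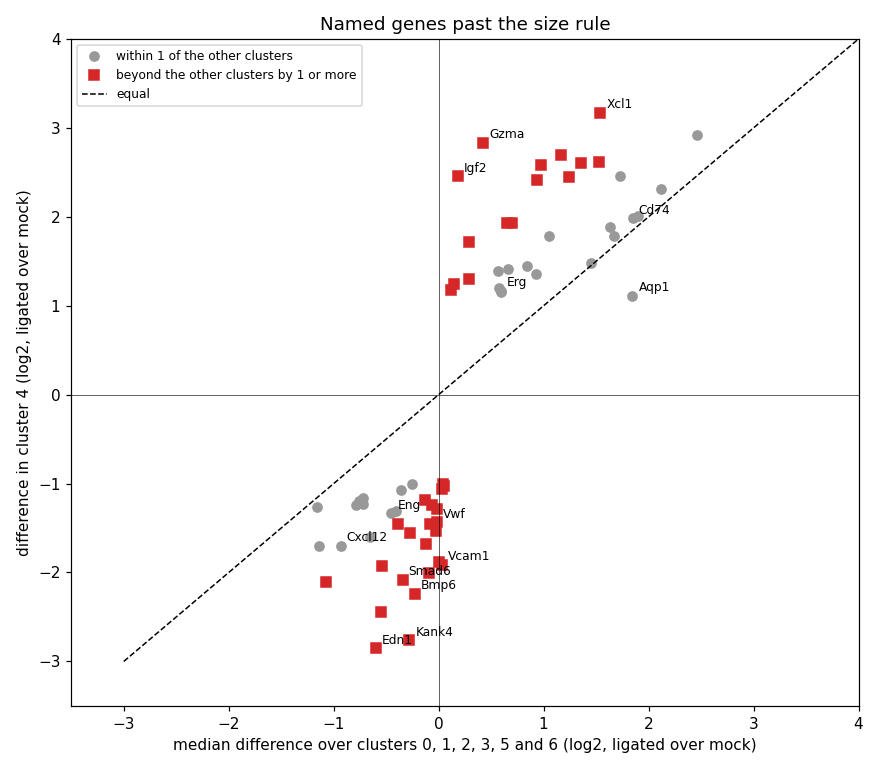
Difference of the named genes past the size rule in cluster 4 (vertical axis, log2 ligated over mock) against the median difference over clusters 0, 1, 2, 3, 5 and 6 (horizontal axis). Squares differ from that median by at least 1, with Edn1 at -2.85 and Igf2 at 2.45. Many squares near 0 on the horizontal axis are genes too low elsewhere to show a difference.

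The promoters of 3 of the fallen genes are shown because Edn1 led the falls and Bmp6 and Smad6 led those of the BMP pathway. They are RefSeq sequences on GRCm38.p6 of 300 bases, from 250 before to 50 after the annotated start: chr13:42301226-42301525 on the plus strand for Edn1, chr13:38345466-38345765 on the plus strand for Bmp6 and chr9:64022010-64022309 on the minus strand for Smad6. Capitals mark the 1 motif match.
Edn1: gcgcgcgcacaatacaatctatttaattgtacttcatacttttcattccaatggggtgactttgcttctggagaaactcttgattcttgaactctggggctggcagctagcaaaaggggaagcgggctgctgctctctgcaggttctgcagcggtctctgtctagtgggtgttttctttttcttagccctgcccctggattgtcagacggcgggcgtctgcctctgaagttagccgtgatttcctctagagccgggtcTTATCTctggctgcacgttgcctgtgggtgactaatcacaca
Bmp6: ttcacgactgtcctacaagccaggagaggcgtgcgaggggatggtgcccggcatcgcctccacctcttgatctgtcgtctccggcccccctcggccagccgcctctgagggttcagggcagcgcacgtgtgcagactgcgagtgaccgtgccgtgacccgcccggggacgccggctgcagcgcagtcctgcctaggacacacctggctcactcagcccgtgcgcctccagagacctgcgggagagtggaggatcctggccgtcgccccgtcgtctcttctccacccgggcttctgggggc
Smad6: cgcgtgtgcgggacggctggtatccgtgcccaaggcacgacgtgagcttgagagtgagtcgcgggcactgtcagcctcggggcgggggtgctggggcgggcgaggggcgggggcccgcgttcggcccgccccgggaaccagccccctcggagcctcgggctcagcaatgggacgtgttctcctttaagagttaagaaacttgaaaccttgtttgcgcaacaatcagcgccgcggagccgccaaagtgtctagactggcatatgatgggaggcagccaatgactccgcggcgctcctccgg
With Eng as the fourth gene, 4 motifs were searched on both strands, none overlapping another match. The AP-1 motif TGANTCA is in 7.81% of 32851 promoters of the same length. The motif of GATA factors, AGATAA, is in 11.2% of them, the GC-rich SMAD motif GGCGCC in 11.9% and the core promoter box TATAAA in 13.6%. Of the 16 pairs of gene and motif, 1 matched, the GATA motif in Edn1, read on the opposite strand as TTATCT and starting 8 bases past the start. The other 15 had no match, which says only that these letters are not in these windows. The 4 genes were chosen after their values were seen.

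Genes of antigen presentation were higher in all 15 tested, beside 5157 of 9709 genes in all. Their median difference was 0.81, beside 0.43 in the other clusters. By the rule 6 rose, beside 0.803% of all genes, but none of these 6 exceeded its median over the other clusters by 1. H2-Q6 and H2-Q7, class I-like genes, went from 0.578 to 1.70 and from 1.31 to 3.51, and in cluster 0 they had log2 differences of 0.77 and 0.98. The class II genes H2-Aa (0.108 to 0.736), H2-Ab1 (0.122 to 0.522) and H2-Eb1 (0.0746 to 0.501) and the invariant chain Cd74 (0.333 to 1.61) rose too. In the macrophage cluster 5 Cd74 was at 176, and in cluster 0 it went from 0.300 to 1.43. After subtraction of the library profile H2-Q6 and H2-Q7 differed by 1.31 and 1.20. The 4 class II genes were no longer past the rule. Of these, H2-Aa still differed by 1.30 but at levels under the minimum, and H2-Ab1, H2-Eb1 and Cd74 differed by 0.58, 0.87 and 0.31. The interferon response genes were higher in 21 of 27 tested with a median of 0.36, equal to the 0.36 of the other clusters, and none was past the rule. Isg15, a ubiquitin-like protein, was 1.90 and 3.26.

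The 15 rises beyond the median of the other clusters held 4 genes of the natural killer and macrophage lists (Gzma, Gzmb, Tyrobp and Fcer1g). Xcl1, Cd7, Cd52, Rgs1 and Ptprc, on no list, are also known from leukocytes. The median they exceeded includes clusters 1 and 2, where all of them were high in both libraries. All of them rose in the mural cluster 6 too, such as Tyrobp from 0.0639 to 3.73 and Ptprc from 0 to 1.27. Their rises were thus not particular to cluster 4. Xcl1, a chemokine of natural killer cells, went from 0.0356 to 1.12, Gzma, a granzyme, from 0.0145 to 0.717, and Tyrobp, an adaptor of natural killer and myeloid receptors, from 0.221 to 1.98. Their levels in cluster 1, the natural killer cluster, were 20.2, 7.11 and 31.8. Beside these, the summed level of 9 natural killer markers in cluster 4 went from 1.03 to 8.77, of 12 macrophage markers from 0.627 to 5.74, of 11 fibroblast markers from 0.829 to 2.82, of 9 T cell markers from 0.215 to 1.12 and of 15 epithelial markers from 0.567 to 2.22. In cluster 0 the natural killer sum went from 1.39 to 5.62 and the macrophage sum from 0.928 to 4.51. The median level of other cell types' markers in cluster 4 was 2.82% of the library mean for mock and 11.1% for ligated, and 3.64% and 9.55% in cluster 0. Markers at 0 in both libraries of cluster 4 included Ms4a1, Krt5 and S100a8. The part of these cells' RNA in the rises was not tested. Gzma, Gzmb, Tyrobp and Fcer1g are on the lists that set the part subtracted. After subtraction Xcl1, Gzma, Tyrobp and Fcer1g still differed by 1.60, 2.36, 1.51 and 1.28 but at levels under the minimum, and Gzmb, Cd52, Cd7, Rgs1 and Ptprc differed by 0.32, 0.22, 0.16, 0.42 and 0.51.

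**Figure D4:**
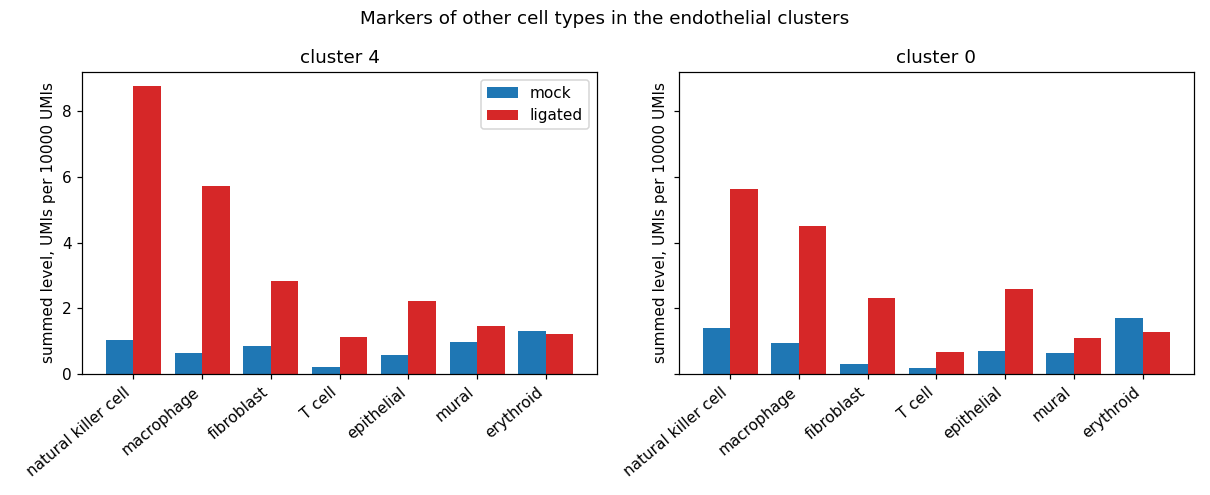
Summed level of the markers of 7 other cell types in clusters 4 and 0, mock and ligated, in UMIs per 10000 UMIs. Natural killer markers in cluster 4 stand at 1.03 in the mock and 8.77 in the ligated library.

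Other named rises were these. Igf2, insulin-like growth factor 2, went from 0.0765 to 0.867 in cluster 4 and from 0 to 0.0138 in cluster 0, and its difference was 2.45 with and without subtraction. In the 6 other clusters it was no higher than 0.137, too low for a comparison. It shares exon sequence with Gm49394, so its counts are uncertain. Sema6d, a membrane semaphorin, went from 0.607 to 1.49 (cluster 0 from 1.15 to 2.30), and Mdm4, a p53 inhibitor, from 0.318 to 0.930 (cluster 0 from 0.496 to 0.788). Erg, an endothelial transcription factor, rose from 0.501 to 1.25, and also in cluster 0 (0.488 to 1.58), and Efna1, an ephrin ligand, from 1.07 to 3.08 (cluster 0 from 0.838 to 2.58). Of 19 immediate early genes, which dissociation can induce, only Fosb rose by the rule (0.835 to 1.98), beside 0.803% of all genes. In value 9 of them were higher and 10 lower.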

How the data were processed

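Per the submitters' processing notes, Cell Ranger 6.0.1, Seurat and the build mm10 were used; cell filters, clustering and doublet removal are not given in the sources used here. The authors deposited cluster means, whose values (unit other, neither counts nor CPM) are read from the values as UMIs per 10000, since each column sums to 10000. Dates had replaced 21 gene names, restored from row order. No column was left unassigned.

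The weights that join the split means gave the number of cells. Differences are log2((ligated + 0.1)/(mock + 0.1)), which understates changes of low genes. Tested genes were above 0 in both libraries (16296 of 20140) with a mean of at least 0.05. Genes are named from 32 lists (15 of markers, 17 of functions), among the 15 leading genes against cluster 0 or all clusters, the 15 largest rises and falls beyond the other clusters, or as joined symbols. Others were chosen after their values were seen. Members and lists were chosen with earlier results of these data known. GENCODE M21 gave positions. A second promoter scan, with motifs picked after the windows had been read, was discarded. Scripts were tested on simulated data (Python 3.11.15, numpy 2.4.6, pandas 2.3.3, scipy 1.17.1).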

Additional observations from a re-analysis of the deposited data

How the results depend on the processing

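No paired analysis was possible because each condition had 1 library, and for the same reason no replicate could be left out. The main count was 152 genes past the size rule (78 higher, 74 lower), 37 of them beyond the other clusters. It was 33 (19 and 14, 6 beyond) with a pseudocount of 1, and 199 (97 and 102, 59 beyond) with 0.01. It was 52 (21 and 31, 9 beyond) where the higher value had to reach 2, 297 (193 and 104, 75 beyond) with no minimum, and 40 (29 and 11, 16 beyond) with a difference of at least 2. With symbols of 1 library included it was 239 (129 and 110, 58 beyond), which adds annotation differences. Subtraction gave 134 (41 and 93), without a count beyond the other clusters, which were not subtracted. Joining symbols (155), centring (151) and leaving out genes that share exon sequence (123) stayed within 1.5 times. Of 66 named genes past the rule, 52 were no longer past it with a pseudocount of 1, 46 where the higher value had to reach 2, 46 with a difference of at least 2 and 19 after subtraction, beside Col1a2, a fibroblast collagen, which reversed from 1.88 to -0.22. Col1a2 is on a list that set the part subtracted. Against cluster 0, 184 genes were higher and 125 lower in the mock library alone, and 129 and 118 in the ligated library alone. Shares of cells were the same by least squares. Counts beyond the other clusters depend on levels there: for 14 of the 37 genes no other cluster reached 0.5.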
